A study of Mus musculus with 6 samples.

Results

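The activity genes described here are 10 transcripts that neurons make within minutes of synaptic input. They are *Egr1*, *Egr2*, *Egr3* and *Egr4*, *Nr4a1*, *Nr4a2* and *Nr4a3*, *Npas4*, *Arc* and *Ier2*. They were chosen by gene symbol, with earlier results of these data known, and each symbol matched 1 gene among the 55357 in the deposited counts. All 10 were among the 21876 genes that reached 6 reads in a library and were tested. The 6 libraries came from poly(A) RNA of mouse primary neuronal cultures, prepared from the cortex and hippocampus of wild type C57BL/6N embryos. In 3 of them (shCtrl) the cultures had received a lentivirus with a scrambled shRNA at DIV4 (days in vitro), and in the other 3 (sh*Pla2g4e*) a lentivirus with an shRNA named sh2 against *Pla2g4e*, which encodes a calcium-dependent N-acyltransferase. All were collected at DIV14, and the labels name no stimulus before collection. Only 1 of the shRNAs that the study designed was sequenced, and the vector (pLVTHM) carries no promoter that restricts it to neurons. The labels do not say whether replicates were separate cultures, so p-values measure only the spread between these libraries.

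Immediate early genes are transcribed without new protein synthesis when calcium enters a neuron through glutamate receptors and voltage-gated channels. Kinases then phosphorylate CREB, SRF and their partners, which wait at the promoters of these genes. *Egr1* to *Egr4* encode zinc finger transcription factors that bind a GC-rich site. *Nr4a1* to *Nr4a3* encode orphan nuclear receptors. *Npas4* encodes a bHLH-PAS factor that responds selectively to calcium and shapes inhibitory synapses. *Arc* encodes a capsid-forming protein of the dendrite that drives endocytosis of AMPA receptors, and *Ier2* a nuclear protein of the same early response.

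In sh*Pla2g4e* cultures these genes did not move together. *Nr4a1* rose 1.39-fold, and it was the only member called at an adjusted p of 0.01 in the comparison of 3 against 3 libraries by edgeR's quasi-likelihood test. *Egr3* stood 25.0% below shCtrl, *Npas4* 24.9% below and *Egr1* 17.4% below. These 3 passed the same threshold, as lower, once the replicate number was kept as a block in the model, and *Nr4a2* passed it as higher, though not when DESeq2 was used with the block (adjusted p = 0.0686). In all, 5 members had a higher mean in sh*Pla2g4e* and 5 a lower mean, with *Nr4a3* among the higher at a log2 fold change of only 0.03.

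The shRNA is shown beside the members because a guide strand can also repress transcripts that pair with its bases 2 to 8, the seed, mostly through sites in the 3′ UTR. The sh2 target of 19 nt lies in the coding sequence of *Pla2g4e*, at nucleotides 1495 to 1513 of transcript ENSMUST00000090071 (GENCODE vM21). The reverse complement of the target was taken as the guide. Capitals mark the seed in the guide and, in the target and in the member transcripts, the 7 bases that pair with it. *Egr3* and *Npas4* are shown because they were the only members with that match in the 3′ UTR of their longest coding transcript.
sh2 target in Pla2g4e: ggaagatggtgGTGGCCAa
sh2 guide: tTGGCCACcaccatcttcc
Egr3 3′ UTR: ccacttctcctGTGGCCAgtaagctgccca
Npas4 3′ UTR: ggcttgcccagGTGGCCAcctcgtggtgct

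The *Egr3* match spanned nucleotides 2969 to 2975 of ENSMUST00000225200, and the *Npas4* match nucleotides 3554 to 3560 of ENSMUST00000056129. In the coding sequence, *Nr4a2* and *Egr1* held 1 match each, at nucleotides 914 to 920 of ENSMUST00000028166 and 3119 to 3125 of ENSMUST00000064795. Such matches are common there (25.7% of tested genes with an annotated 3′ UTR, 39.4% of those called lower and 23.4% of those called higher). The other 6 members held none in any part of the longest coding transcript. Among the 15702 tested genes with an annotated 3′ UTR, 11.95% held the 7 bases in the 3′ UTR, against 38.1% of the 856 called lower in sh*Pla2g4e* and 6.05% of the 479 called higher. *Egr3* and *Npas4* were also the members furthest below shCtrl, and the part of the shRNA's seed in their levels was not tested.

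Levels are given in CPM, the reads of a gene as a share of the library scaled with edgeR's TMM factors, in the order of replicates 1, 2 and 3. For the silenced gene *Pla2g4e*, shCtrl libraries held 38.0, 35.1 and 35.4 CPM and those of sh*Pla2g4e* 21.8, 14.1 and 18.7 CPM, with no overlap (adjusted p = 1.24e-04, edgeR). Counted reads ranged from 17054717 to 23570180 per library, of which 14004 to 18399 fell on the 10 members. Over all genes, 6.49% were called, 2.48% as higher and 4.00% as lower. With the replicate block 15.5% were called, 6.50% as higher and 9.02% as lower. At an adjusted p of 0.05 without the block, 12.9% passed, and 25.7% had an unadjusted p under 0.05. The libraries of the groups did not overlap for 30.0% of genes, and for 3 of the 10 members. Against these shares, members called numbered 1 without the block and 5 with it. Without the block, 3 had an edgeR adjusted p below 0.05 and 6 an unadjusted p under 0.05. The median log2 fold change was −0.08 over the members and 0.03 over all genes tested.

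**Figure D1:**
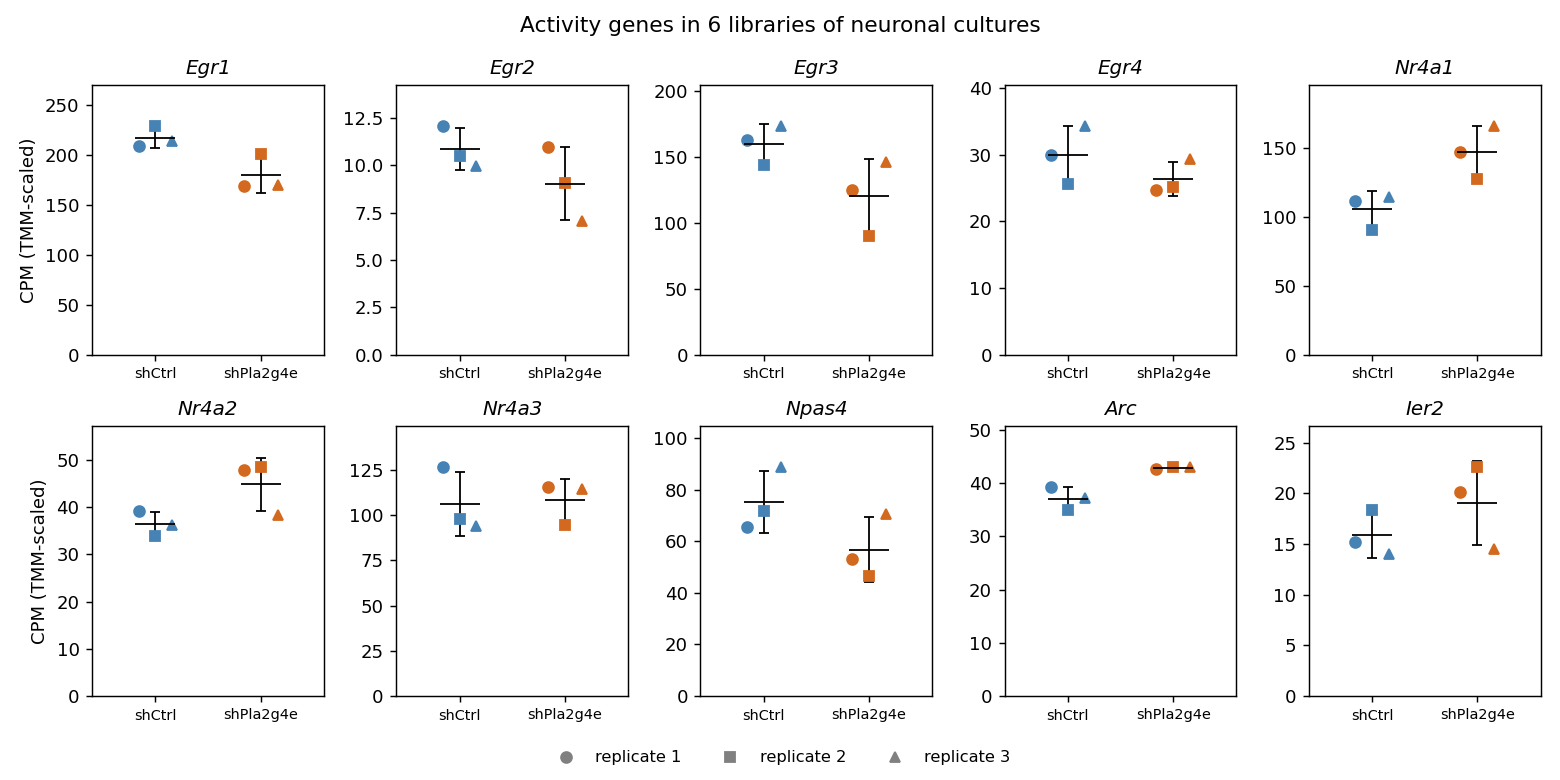
TMM-scaled CPM of the 10 activity genes in each library (y axis, from 0), by group (x axis), with marker shape for the replicate number and black bars for the mean and SD of 3 libraries. *Nr4a1* and *Arc* are higher in all sh*Pla2g4e* libraries and *Egr1* lower, and the groups overlap for the other 7.

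Expressed per kilobase of exon (RPKM), which allows levels of different genes to be compared, *Egr1* was the most abundant member in shCtrl, at 48.5 ± 2.28 RPKM (SD, n = 3). It was followed by *Egr3* (36.4 ± 3.40), *Nr4a1* (30.2 ± 3.78), *Npas4* (18.2 ± 2.91) and *Nr4a3* (17.7 ± 2.97). Below these came *Egr4* (13.9 ± 2.02), *Arc* (12.1 ± 0.707), *Ier2* (10.4 ± 1.46), *Nr4a2* (8.98 ± 0.663) and *Egr2* (3.19 ± 0.325). In this order, the shCtrl libraries separated *Egr1* from *Egr3*, *Nr4a1* from *Npas4*, and *Nr4a2* from *Egr2*, and they overlapped between all other neighbours. In sh*Pla2g4e*, *Nr4a1* reached 41.9 ± 5.53 RPKM and stood beside *Egr1* at 40.1 ± 4.06 RPKM, with *Egr3* at 27.3 ± 6.47 RPKM.

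Among the Egr factors, *Egr1* (Zif268, a standard readout of plasticity-inducing activity) was the most abundant. Its shCtrl libraries had 209.7, 229.2 and 214.2 CPM, and its sh*Pla2g4e* libraries 168.8, 200.9 and 169.9 CPM. Every sh*Pla2g4e* library was below every shCtrl library. The log2 fold change was −0.28 (standard error 0.09), with an adjusted p of 0.0460 by edgeR and of 4.56e-04 with the replicate block.

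*Egr3*, a target and partner of *Egr1* in long-term memory, had 163.4, 144.1 and 173.7 CPM in shCtrl and 125.0, 89.9 and 146.3 CPM in sh*Pla2g4e*. Replicate 2 was the lowest library and replicate 3 the highest in either group, so that the groups overlapped by a narrow margin while each numbered pair was lower in sh*Pla2g4e*, by log2 differences of −0.39, −0.68 and −0.25. The fitted log2 fold change was −0.42 (standard error 0.13). The adjusted p was 0.0495 without the block and 7.11e-07 with it.

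*Egr2* (Krox20, also needed for myelination) and *Egr4* were not called with or without the block. *Egr2* was the scarcest member, at 12.1, 10.5 and 9.95 CPM in shCtrl and 10.96, 9.06 and 7.08 CPM in sh*Pla2g4e*. *Egr4* had 29.9, 25.6 and 34.3 CPM in shCtrl and 24.6, 25.2 and 29.3 CPM in sh*Pla2g4e*. Both were lower in 3 of 3 pairs, and the 95% intervals of their log2 fold changes ran from −0.61 to 0.10 for *Egr2* and from −0.44 to 0.06 for *Egr4*. A decrease as large as that of *Egr1* lay within both intervals.

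All 4 Egr genes had a lower mean in sh*Pla2g4e*. Of the nuclear receptor genes, *Nr4a1* and *Nr4a2* had a higher one, and *Nr4a3* hardly differed (log2 fold change 0.03). *Nr4a1* (Nur77, on chromosome 15 at 101152150 to 101172676 of GRCm39) had 111.9, 90.6 and 114.9 CPM in shCtrl and 147.7, 127.4 and 166.2 CPM in sh*Pla2g4e*. The lowest sh*Pla2g4e* library was above the highest shCtrl library, and in both groups replicate 2 was lowest and replicate 3 highest. On the log2 scale the change was 0.47 with a standard error of 0.11 (adjusted p = 0.00748 by edgeR, 3.41e-08 with the replicate block), and the pairs gave 0.40, 0.49 and 0.53.
With any single library removed and no block, *Nr4a1* kept its direction, but its edgeR adjusted p was above 0.01 without shCtrl replicate 1 (0.0138), shCtrl replicate 2 (0.0655), sh*Pla2g4e* replicate 1 (0.0276) or sh*Pla2g4e* replicate 3 (0.0204).

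*Nr4a2* (Nurr1, essential for dopamine neurons) had 39.2, 33.8 and 36.3 CPM in shCtrl and 47.9, 48.5 and 38.5 CPM in sh*Pla2g4e*. Replicate 3 of sh*Pla2g4e* fell inside the shCtrl range, and the other two stood clear above it. Its log2 fold change of 0.30 (standard error 0.10) had an adjusted p of 0.0652 by edgeR and of 0.00704 with the block, and of 0.0686 with the block in DESeq2.
*Nr4a3* (Nor1) had 126.5, 98.1 and 93.7 CPM in shCtrl and 115.7, 94.5 and 114.6 CPM in sh*Pla2g4e*. It was the member with the least difference, at a log2 fold change of 0.03 and a 95% interval from −0.21 to 0.26. Its pairs differed in sign, with 2 lower in sh*Pla2g4e* and 1 higher.

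*Npas4* (chromosome 19, 5034383 to 5040344 of GRCm39) had 65.4, 71.6 and 88.7 CPM in shCtrl and 53.0, 46.3 and 70.7 CPM in sh*Pla2g4e*. As for *Egr3*, replicate 3 was the highest of either group, and that of sh*Pla2g4e* lay inside the shCtrl range, while every pair was lower in sh*Pla2g4e*, by −0.30, −0.63 and −0.33. The log2 fold change was −0.41 (standard error 0.14), and the adjusted p was 0.0578 by edgeR and 1.25e-05 with the block.
Without sh*Pla2g4e* replicate 3 and with no block, *Npas4* (−0.60, adjusted p = 0.00129 by edgeR), *Egr3* (−0.58, 0.00224) and *Nr4a2* (0.40, 0.00905) all passed the threshold. Other removals had the opposite effect. Without sh*Pla2g4e* replicate 2, *Egr3* was at −0.24 (adjusted p = 0.172 by edgeR) and *Npas4* at −0.29 (0.216), and without shCtrl replicate 3 *Npas4* was at −0.28 (0.238). In edgeR's robust fit without the block, the adjusted p was 0.155 for *Egr3* and 0.169 for *Npas4*.

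*Arc* and *Ier2* were not called in either model. *Arc* had 39.2, 34.9 and 37.3 CPM in shCtrl and 42.7, 43.0 and 43.0 CPM in sh*Pla2g4e*. Its groups did not overlap, and its sh*Pla2g4e* libraries varied less (coefficient of variation 0.410%) than those of any other member. That spread is below the sampling noise of counts of 753 to 1021 reads, so it does not measure how steady the gene is. Its log2 fold change of 0.21 (standard error 0.09) had an adjusted p of 0.138 by edgeR and of 0.0685 with the block.
*Ier2* had 15.2, 18.3 and 14.0 CPM in shCtrl and 20.1, 22.6 and 14.5 CPM in sh*Pla2g4e*, with an adjusted p of 0.295 by edgeR and 0.0896 with the block. Its 95% interval on the log2 scale ran from −0.06 to 0.60, which holds the change of *Nr4a1*.

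**Figure D2:**
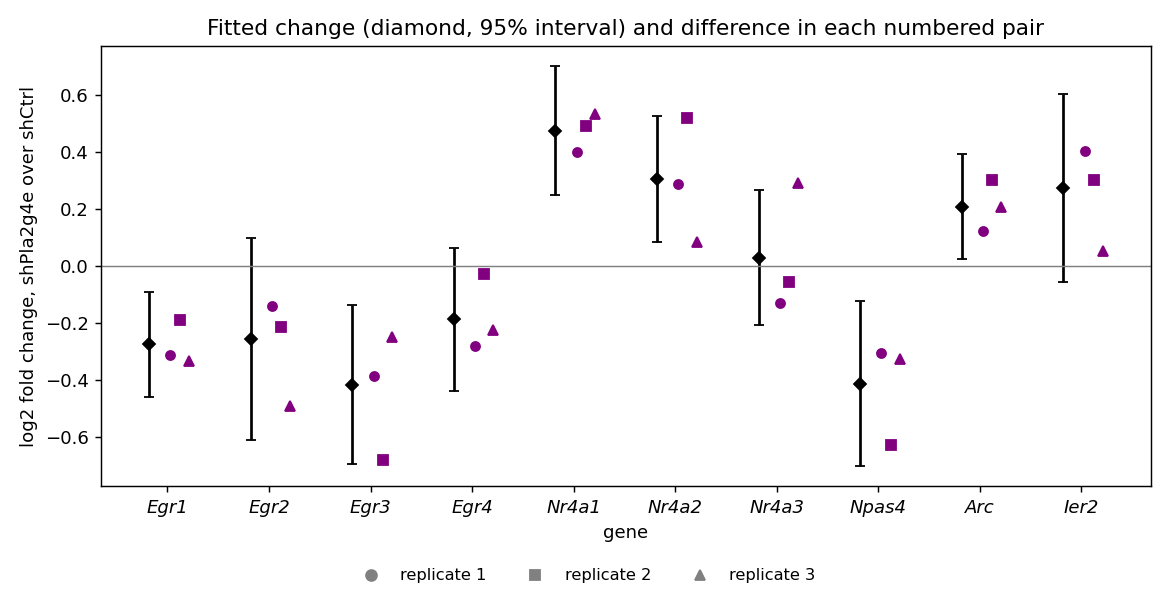
Log2 fold change of sh*Pla2g4e* over shCtrl (y axis) for each activity gene (x axis): diamonds with bars are the edgeR estimate and its 95% interval without the block, and purple symbols the difference in each pair of same-numbered libraries. All 3 pairs are below 0 for the Egr genes and *Npas4* and above 0 for *Nr4a1*, *Nr4a2*, *Arc* and *Ier2*, and only *Nr4a3* has pairs on both sides.

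Because members differed in direction, ratios between their read counts within a library were computed, which do not depend on how libraries are scaled. Such ratios carry the lengths of both transcripts, and only their change between libraries is read here. All 45 ratios were taken, and 17 did not overlap between groups. Ratios between other genes were not computed, so whether this count or those below are unusual was not tested. The smallest p that an exact two-sided permutation test can give with 3 against 3 is 0.1, so no ratio could pass 0.05.
*Egr3* to *Nr4a1* was 1.46, 1.59 and 1.51 in shCtrl and 0.847, 0.705 and 0.880 in sh*Pla2g4e* (exact p = 0.1). The groups did not overlap, at a log2 difference of −0.91, with an SD of 0.0661 around 1.52 in shCtrl and of 0.0929 around 0.811 in sh*Pla2g4e*. *Egr1* to *Nr4a1* went from 2.09 ± 0.382 to 1.25 ± 0.291 (SD, n = 3, exact p = 0.1).

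Of the 12 ratios of an Egr gene to an Nr4a gene, 8 did not overlap between groups, and neither did the 4 of an Egr gene to *Arc*. Their direction follows from the members' own means and adds nothing to them, and ratios that share genes and libraries are not independent. Within the Egr genes all 6 ratios overlapped, as did all 4 of an Egr gene to *Npas4*. By same-numbered pairs, 29 of the 45 ratios differed one way in all 3 pairs, for which the smallest exact two-sided p over pairs is 0.25. Among the 6 and the 4 that overlapped, *Egr1* to *Egr4* and *Egr3* to *Egr4* were lower in sh*Pla2g4e* in 3 of 3 pairs and *Egr4* to *Npas4* was higher in 3 of 3, while the other 4 ratios within the Egr genes and the other 3 to *Npas4* had pairs of both signs. *Egr3* to *Npas4* was 2.50, 2.01 and 1.96 in shCtrl and 2.36, 1.94 and 2.07 in sh*Pla2g4e*, a log2 difference of −0.02 (exact p = 0.8, lower in 2 of 3 pairs). *Nr4a1* to *Npas4* was 1.71, 1.26 and 1.30 in shCtrl and 2.79, 2.75 and 2.35 in sh*Pla2g4e*, without overlap (exact p = 0.1).

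**Figure D3:**
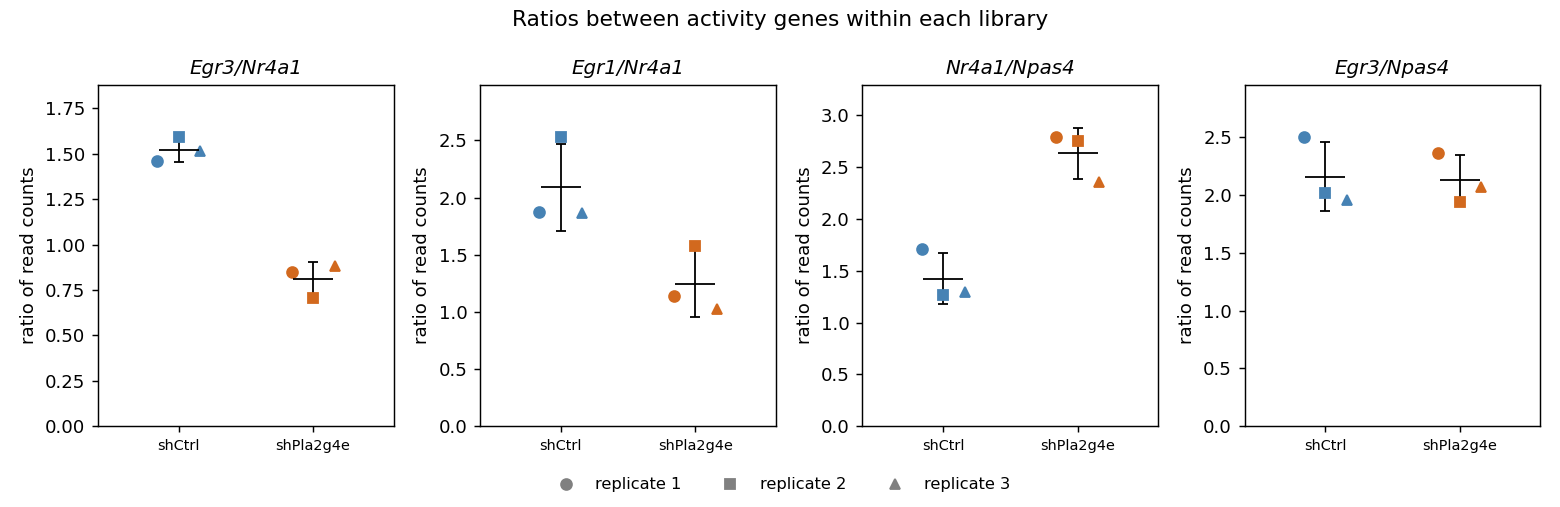
Ratio of read counts between activity genes within each library (y axis, from 0), by group (x axis), with marker shape for the replicate number and black bars for the mean and SD of 3 libraries. *Egr3* to *Nr4a1* lies between 1.46 and 1.59 in shCtrl and between 0.705 and 0.880 in sh*Pla2g4e*, whereas *Egr3* to *Npas4* overlaps.

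The promoters of members of either direction were compared for the motifs through which calcium signals reach these genes. RefSeq windows (GRCm38.p6) were at hand for 6 members, and the 250 bases before the start were searched on both strands for the cAMP response element TGACGTCA, its core TGACG, the AP-1 site TGANTCA, the EGR site GCGTGGGCG and the CArG box of SRF. The core is contained in the full element, and a match describes letters and not binding. *Nr4a1*, *Nr4a2* and *Nr4a3* each held 4 cores, and *Egr4* and *Npas4* 2. *Egr2*, with 5 annotated starts, held 0 to 2 and a CArG box before 4 of the starts. Over 32851 promoter windows of the same length, 17.8% held a core and 1.47% a CArG box. None of the 6 members held the full element (1.55% of windows), the AP-1 site (6.75%) or the EGR site (0.536%) in its window. *Egr1*, *Egr3*, *Arc* and *Ier2* were not examined. The windows of *Nr4a1* and *Nr4a2*, which were higher, and of *Npas4*, which was lower, are shown 5′ to 3′ on the strand of the gene, with cores (TGACG or its reverse complement CGTCA) in capitals.
Nr4a1, chr15:101266596-101266845, plus strand: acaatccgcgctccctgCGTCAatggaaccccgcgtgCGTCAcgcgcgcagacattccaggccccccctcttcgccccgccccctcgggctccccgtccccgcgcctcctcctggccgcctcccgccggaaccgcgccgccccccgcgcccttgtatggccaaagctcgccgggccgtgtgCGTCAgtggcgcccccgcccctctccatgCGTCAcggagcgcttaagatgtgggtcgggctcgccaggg
Nr4a2, chr2:57124004-57124253, minus strand: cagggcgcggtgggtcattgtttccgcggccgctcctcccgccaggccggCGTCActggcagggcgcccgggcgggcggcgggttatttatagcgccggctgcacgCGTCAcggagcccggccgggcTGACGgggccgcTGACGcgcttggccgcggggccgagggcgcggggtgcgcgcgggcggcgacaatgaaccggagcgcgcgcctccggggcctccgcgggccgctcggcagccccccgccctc
Npas4, chr19:4989972-4990221, minus strand: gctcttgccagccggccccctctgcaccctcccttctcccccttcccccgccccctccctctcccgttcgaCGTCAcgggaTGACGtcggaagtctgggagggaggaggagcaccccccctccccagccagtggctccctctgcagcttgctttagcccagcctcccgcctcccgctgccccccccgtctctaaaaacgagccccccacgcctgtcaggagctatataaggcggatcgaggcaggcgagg
Cores were thus present upstream of members on both sides of 0.

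Genes of the same response that are not members were counted in 4 lists. Like the members, these lists were chosen with earlier results of these data known, so their counts are a description. Of 24 other immediate early genes, 10 were called higher and none lower, against 2.48% and 4.00% of all genes. With the block 14 were called higher and none lower, against 6.50% and 9.02%. An unadjusted p under 0.05 in edgeR was reached by 16 of them, against 25.7% of all genes tested. Their median log2 fold change was 0.49. *Bhlhe40*, a bHLH repressor, went from 56.8 ± 3.66 to 90.4 ± 6.25 CPM (SD, n = 3, log2 fold change 0.67, adjusted p = 8.04e-05 by edgeR). *Jund*, an AP-1 subunit, went from 61.5 ± 1.06 to 87.9 ± 0.956 CPM, and *Btg2*, an antiproliferative early gene, from 18.2 ± 0.752 to 34.2 ± 8.02 CPM. None of these 24 genes was called lower, and 3 of the 10 members were with the block. The difference was not tested, and at the shares of all genes few of 24 would be called lower.

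Of 38 activity-induced effectors (growth factors, secreted peptides, phosphatases, kinases and enzymes, some of them immediate early genes too), 9 were called higher and 1 lower, against 2.48% and 4.00% of all genes. With the block 20 and 3 were called, against 6.50% and 9.02%. An unadjusted p under 0.05 in edgeR was reached by 26 of them, and the median log2 fold change was 0.28. *Dusp1*, a phosphatase that switches off MAP kinases, had 36.2, 31.0 and 34.2 CPM in shCtrl and 68.3, 76.6 and 70.2 CPM in sh*Pla2g4e* (log2 fold change 1.08, adjusted p = 1.72e-06 by edgeR). *Ptgs2*, the inducible cyclooxygenase that turns arachidonic acid into prostaglandins, had 13.5, 6.44 and 14.4 CPM in shCtrl and 74.7, 68.7 and 36.1 CPM in sh*Pla2g4e* (2.38, adjusted p = 1.73e-05 by edgeR). *Scg2*, a granin of dense-core vesicles, went from 620.1 ± 93.6 to 1082 ± 56.5 CPM (SD, n = 3). The gene called lower was *Rgs4*, an inhibitor of G protein signalling, at 716.6 ± 54.2 CPM in shCtrl and 426.6 ± 58.6 CPM in sh*Pla2g4e* (−0.75).

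Of 35 genes that carry the signal from calcium to the nucleus, 34 were tested, with a median log2 fold change of −0.12. None was called higher and 4 were called lower, against 2.48% and 4.00% of all genes. With the block 2 were called higher and 10 lower, against 6.50% and 9.02%. An unadjusted p under 0.05 in edgeR was reached by 15, against 25.7% of all genes. *Camk4*, the nuclear calmodulin kinase that phosphorylates CREB, had 110.6, 118.4 and 101.2 CPM in shCtrl and 65.5, 46.8 and 55.8 CPM in sh*Pla2g4e* (−0.97, adjusted p = 2.29e-05 by edgeR). *Crtc1*, a CREB coactivator that moves from synapse to nucleus, went from 183.7 ± 1.57 to 133.6 ± 4.05 CPM, and *Rps6ka2*, a kinase of the RSK family, from 74.9 ± 7.23 to 54.7 ± 3.01 CPM (SD, n = 3). Of 9 partners that bind member proteins, none was called at an adjusted p of 0.01 by edgeR (2 had an unadjusted p under 0.05, a share below the 25.7% of all genes). With the block 1 was called lower, against 9.02% of all genes.

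**Figure D4:**
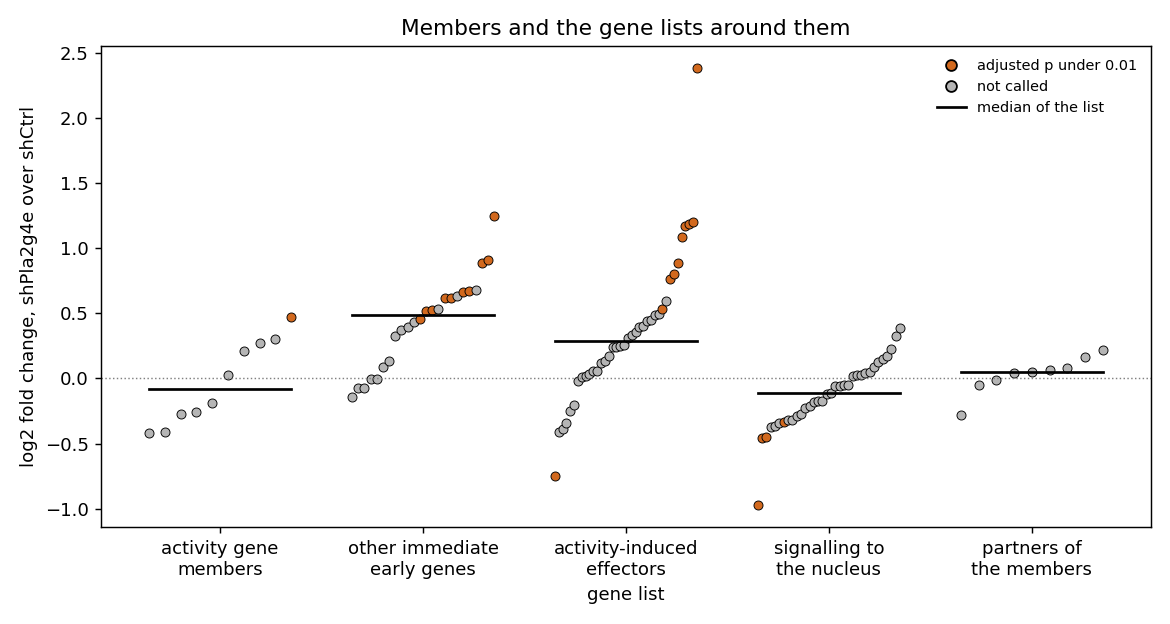
Log2 fold change of sh*Pla2g4e* over shCtrl (y axis) of each gene in 5 lists (x axis), sorted within a list, with genes called at an edgeR adjusted p of 0.01 in orange and the list's median as a line. The medians are −0.08 for the members, 0.49 for other immediate early genes, 0.28 for effectors, −0.12 for signalling genes and 0.05 for partners. Members and lists were chosen with earlier results of these data known.

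The 5 other genes whose log2 CPM over the 6 libraries was most like the mean profile of the members were *Zkscan16* (Pearson r = 0.98), *Arid4b* (0.98), *Pld1* (0.97), *Prcc* (0.97) and *Cnot3* (0.95), out of 10898 genes whose log2 CPM averaged 3 or more. None of them was called, with log2 fold changes from −0.03 to 0.02. The mean profile mixes members of opposite direction (r = −0.96 between *Egr1* and *Nr4a1*, 0.90 between *Egr3* and *Npas4*). Likeness to it is therefore not likeness to the members one by one. With 6 libraries that share their scaling, these values are a description.

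Cell type markers were read beside the members, since in bulk RNA fewer cells of a type and less RNA per cell cannot be told apart. Neuron markers were abundant in all libraries, with 8 genes summing to 4644 to 4966 CPM in shCtrl and 4194 to 4642 CPM in sh*Pla2g4e*. Of these, 2 were called higher and 2 lower (3 and 2 with the replicate block). Over all genes, 2.48% were called higher and 4.00% lower, or 6.50% and 9.02% with the block. The 6 glutamatergic markers summed to 2089 to 2267 and 1515 to 1818 CPM (1 higher, 2 lower, and 1 and 3 with the block), and the 8 GABAergic markers to 807.0 to 884.3 and 787.5 to 886.9 CPM (2 higher, 1 lower, and 3 and 2 with the block). Astrocyte markers (8 genes, 2 called lower, and with the block 5 lower and 1 higher) summed to 2726 to 3493 CPM in shCtrl and 1837 to 3000 CPM in sh*Pla2g4e*, in cultures that the labels call neurons. The 8 oligodendrocyte lineage markers summed to 516.4 to 585.4 and 536.3 to 640.3 CPM, with none called by edgeR and 1, *Olig2*, called lower with the block. The 4 proliferation genes summed to 23.6 to 42.7 and 11.5 to 21.8 CPM, with 1 called lower (2 with the block). Sums did not exceed 11.3 CPM in any library for microglia, 30.9 CPM for endothelial and mural cells and 33.0 CPM for fibroblasts, lists of which none, 1 and 2 genes were called, as higher, with the block. Glia also express several members, *Egr1* and *Ier2* among them, and the part of these shifts in the members' levels was not tested.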

How the data were processed

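Reads of 6 libraries (TruSeq Stranded mRNA kit) were aligned by the authors with STAR 2.7.0d and counted on exons with featureCounts 1.6.0. The deposited values are raw read counts per gene, not normalized, 1 table per library. The methods name mm10 and Gencode M18, whereas the deposited tables carry GENCODE vM28 on GRCm39. The recorded counting command shows neither a strand nor a pair option, so reads of both strands count. No exon of a member overlaps another gene on either strand, and at most 0.150% of a member's 50-base stretches (*Nr4a3*) recur in other genes. Symbols came from GENCODE vM21 through gene identifiers (52081 of 55357 matched).

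Counts were tested with edgeR 4.0.16 in R 4.3.3 (TMM, glmQLFit, glmQLFTest) over the 21876 genes that reached 6 reads in any library, with Benjamini-Hochberg adjustment over all of them and a threshold of 0.01. Alternatives were limma 3.58.1 after voom (the test of the study), DESeq2 1.42.0, other scalings and filters, dropping single libraries and a threshold of 0.05. Both blocked fits outside edgeR (limma after voom, DESeq2) were added after the data had been seen. Replicate numbers come from the labels. Over 10908 genes, deviations from group means correlated at 0.392, 0.189 and 0.461 between same-numbered libraries, against −0.393 to 0.108 otherwise, so the numbers were treated as pairs. With the block 2 residual degrees of freedom remain (4 without it). The median prior degrees of freedom were 63.1 with the block and 11.7 without it. The blocked p-values of edgeR thus rest mostly on variance borrowed from other genes and not on the pairs alone. Between any libraries of 1 group, the chi-square statistic per gene was at least 6.03, above sampling noise for every pair. Depth was 17054717 to 23570180 reads per library. The scripts were tested on simulated data.

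Genes named are the members, *Pla2g4e*, the called genes with the 3 smallest p per list and direction, and the 5 genes most like the members' mean profile. *Olig2* was named after its values were seen. The members and lists were chosen with earlier results of these data known. Sites were searched in the longest coding transcript of GENCODE vM21.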

Additional observations from a re-analysis of the deposited data

How the results depend on the processing

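*Nr4a1* was the member called with limma after voom, DESeq2, every scaling, both stricter filters and the robust fit, as in the reported comparison. Members called numbered 3 with no filter (*Egr3*, *Nr4a1*, *Npas4*), 3 at an adjusted p of 0.05, 5 with the replicate block in edgeR, 5 with the block in limma after voom and 4 with the block in DESeq2 (without *Nr4a2*, adjusted p = 0.0686), and 0 to 3 when 1 library was left out. Genes called over all genes, 1419 in the reported fit, were 2349 with no filter, 2813 at 0.05, 3395 with the replicate block, 3333 with the block in limma after voom, 2141 with the block in DESeq2, and 695 to 1613 without 1 library (the lowest without shCtrl replicate 2, then 854 and 931 without replicates 1 and 2 of sh*Pla2g4e*, and 928 without the first shCtrl library). In the lists around the members, 19 higher calls became 30 with no filter, 36 with the block in edgeR and in limma after voom, and 31 at 0.05. The 5 lower calls became 10 with DESeq2, 10 with no filter, 14 with the block in edgeR and in limma after voom, 12 with the block in DESeq2, 12 at 0.05, and 3 to 7 without 1 library (3 without shCtrl replicate 1 or sh*Pla2g4e* replicate 2). *Nr4a3* ranged from −0.054 to 0.174 on the log2 scale without 1 library, and was below 0 without replicates 2 (−0.02) or 3 of shCtrl or replicates 1 (−0.02) or 3 (−0.01) of sh*Pla2g4e*. No other member changed direction in any of 18 alternative fits. Library size alone moved the median of all genes to 0.10 and the split of calls to 796 higher and 609 lower, from 543 and 876. The cause of these shifts was not tested. *Egr2* and *Ier2* had the fewest reads of the members.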
